A study of Mus musculus with 27 samples.

Results

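The 10 genes described here belong to the integrated stress response and were chosen by symbol: *Atf4*, *Atf5*, *Ddit3*, *Trib3*, *Asns*, *Psat1*, *Phgdh*, *Chac1*, *Sesn2* and *Mthfd2*, which are 10 of the 36333 genes with a value. All 10 were found in the table, and each is described over 3 tissues and 2 ages. The choice was made with earlier results of these data known.

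RNA sequencing was performed on liver, skeletal muscle and omental adipose tissue of *Mlx*KO males, with 4 samples per tissue at 5 months and 5 at 20 months, 27 in all. In all 6 groups the strain carries Gt(ROSA)26Sortm1(cre/ERT2)Tyj on B6.129, crossed to Mlx Flox/Flox, so that a tamoxifen-activated Cre recombinase under the ROSA26 promoter removes part of *Mlx* throughout the body. *Mlx* encodes the common partner of the glucose-sensing transcription factors ChREBP and MondoA. Every mouse was given 5 daily tamoxifen injections of 75 mg/kg around weaning, once it weighed at least 15 g. No group with intact *Mlx* was analysed here, so a change with age cannot be told apart from a change with time since the loss of *Mlx*. The older samples are labelled 20 months, although their sample names carry the number 18, and a supplementary list of the study gives that age for animals whose numbers end in the same digits. The 5-month liver, adipose tissue and muscle came from the same 4 mice, called A, B, C and D here after the order of the numbers in their sample names, and their values are given in that order throughout. The 20-month samples, treated as separate mice, are 16, 17, 18, 19 and 74 in liver, 56 to 60 in muscle and 36 to 40 in adipose tissue, again in that order.

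The integrated stress response is the program that cells start when amino acids run short, unfolded proteins collect in the endoplasmic reticulum, mitochondria fail or heme is lacking. A family of kinases then phosphorylates the translation factor eIF2, most protein synthesis falls, and the mRNA of the transcription factor ATF4 is translated more efficiently. ATF4 and its partners bind a composite C/EBP-ATF element and switch on genes for amino acid synthesis, uptake and redox balance, so the mRNA of the target genes is a common readout of the pathway. Neither eIF2 phosphorylation nor the ATF4 protein was measured in these samples.

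The values are reads per gene relative to the reads of the library, adjusted by a scale factor. Each library held between 14384695 and 25673919 reads on genes, and 3 reads were worth 0.0703 to 0.242. Remaining *Mlx* transcript, which includes exons outside the removed segment, stood at 18.8 to 32.4 in liver, at 7.04 to 11.6 in muscle and at 8.19 to 13.9 in adipose tissue. The summed values of the tissue's own defining markers were 45110 to 162613 in liver (*Alb*, *Apoa1*, *Ttr*, *Cyp2e1*, *Tat*), 5886 to 13229 in adipose tissue (*Adipoq*, *Plin1*, *Fabp4*, *Lep*, *Cidec*) and 120264 to 155271 in muscle (*Ckm*, *Acta1*, *Myh4*, *Tnnt3*, *Mylpf*).

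Promoter sequences of *Asns*, *Chac1* and *Trib3* are shown because these were the 3 of the 10 genes whose RefSeq window, from 250 bases before to 50 bases after the transcription start, held the letters TGATGNAA on either strand (TTNCATCA on the reverse), a form of the C/EBP-ATF element. These letters occurred in 3.97% of 32851 windows and 4.51% of 27025 genes, so the match is a description of the sequence and not a site shown to be bound. The E-box CACGTG, which reads the same on both strands, was in the windows of 0 of the 10 genes and in 8.09% of all genes. The sequences are written 5′ to 3′ on the gene's strand in GRCm38.p6, with the matched letters in capitals. The 250 bases before the start are given for *Asns* (chr6:7693210-7693459, minus strand) and *Chac1* (chr2:119350992-119351241, plus strand), and 30 bases within the transcript for *Trib3* (chr2:152344028-152344057, minus strand).
Asns: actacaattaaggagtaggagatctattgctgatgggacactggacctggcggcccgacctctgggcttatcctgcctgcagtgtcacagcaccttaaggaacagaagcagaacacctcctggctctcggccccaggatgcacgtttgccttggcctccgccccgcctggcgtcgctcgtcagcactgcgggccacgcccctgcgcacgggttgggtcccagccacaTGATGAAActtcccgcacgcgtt
Chac1: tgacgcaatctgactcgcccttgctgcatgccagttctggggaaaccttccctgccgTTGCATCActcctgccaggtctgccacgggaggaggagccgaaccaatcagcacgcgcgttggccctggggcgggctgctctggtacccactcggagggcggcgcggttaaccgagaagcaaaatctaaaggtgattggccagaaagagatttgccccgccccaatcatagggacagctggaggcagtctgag
Trib3: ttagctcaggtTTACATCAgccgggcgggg
The match lay 23 bases upstream of the start in *Asns* and 193 bases upstream in *Chac1*, and began at transcript base 15 in *Trib3*.

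In GRCm38.p6 *Asns* (gene ID 27053) spans chr6:7675165-7693209 on the minus strand, *Chac1* (69065) chr2:119351242-119354326 on the plus strand, *Trib3* (228775) chr2:152337425-152344060 on the minus strand and *Sesn2* (230784) chr4:132492804-132510456 on the minus strand. *Atf4* (11911) spans chr15:80255184-80257545 on the plus strand, *Psat1* (107272) chr19:15905123-15925059 on the minus strand and *Mthfd2* (17768) chr6:83305704-83326011 on the minus strand. *Atf5* (107503, chr7:44812256-44816658, minus) overlaps *Nup62* and *Il4i1b*, and *Ddit3* (13198, chr10:127290793-127296291, plus) overlaps *Mbd6* and *Mars1*. The strand setting of the counting is not given in the sources used here, so reads in the overlaps may be assigned to either gene. *Phgdh* (236539, chr3:98313171-98339969, minus) shares 47.8% of the 50-base words of its exons with pseudogenes that are not rows of the table, and its values are uncertain to that extent.

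The relative abundance of the 10 mRNAs was different in each tissue (plot of every sample by tissue and age). Per kilobase of exon, *Atf5* was the highest of the 10 in liver at 5 months, at 593 ± 123 (SD, n = 4), followed by *Atf4* at 43.3 ± 7.25. In muscle of the same mice *Atf4* came first at 151 ± 16.8, ahead of *Chac1* at 70.5 ± 17.4 and *Atf5* at 59.5 ± 11.7, which did not differ beyond their spread. In adipose tissue at 5 months *Atf5*, *Atf4* and *Phgdh* stood at 60.9 ± 13.98, 50.4 ± 5.94 and 43.0 ± 30.7 per kilobase, and their order was not resolved by these samples. At 20 months *Phgdh* led in adipose tissue, at 96.9 ± 32.4 per kilobase (n = 5). *Mthfd2* had the lowest mean per kilobase in adipose tissue at both ages. The lowest means were those of *Phgdh* in liver and *Psat1* in muscle. At 20 months *Phgdh* lay within the spread of *Psat1* in liver (0.229 ± 0.132 and 0.293 ± 0.0802). In muscle *Psat1* lay within the spread of *Asns* at 5 months (0.912 ± 0.616 and 1.25 ± 0.885) and at 20 months (0.557 ± 0.167 and 0.596 ± 0.244).

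**Figure D1:**
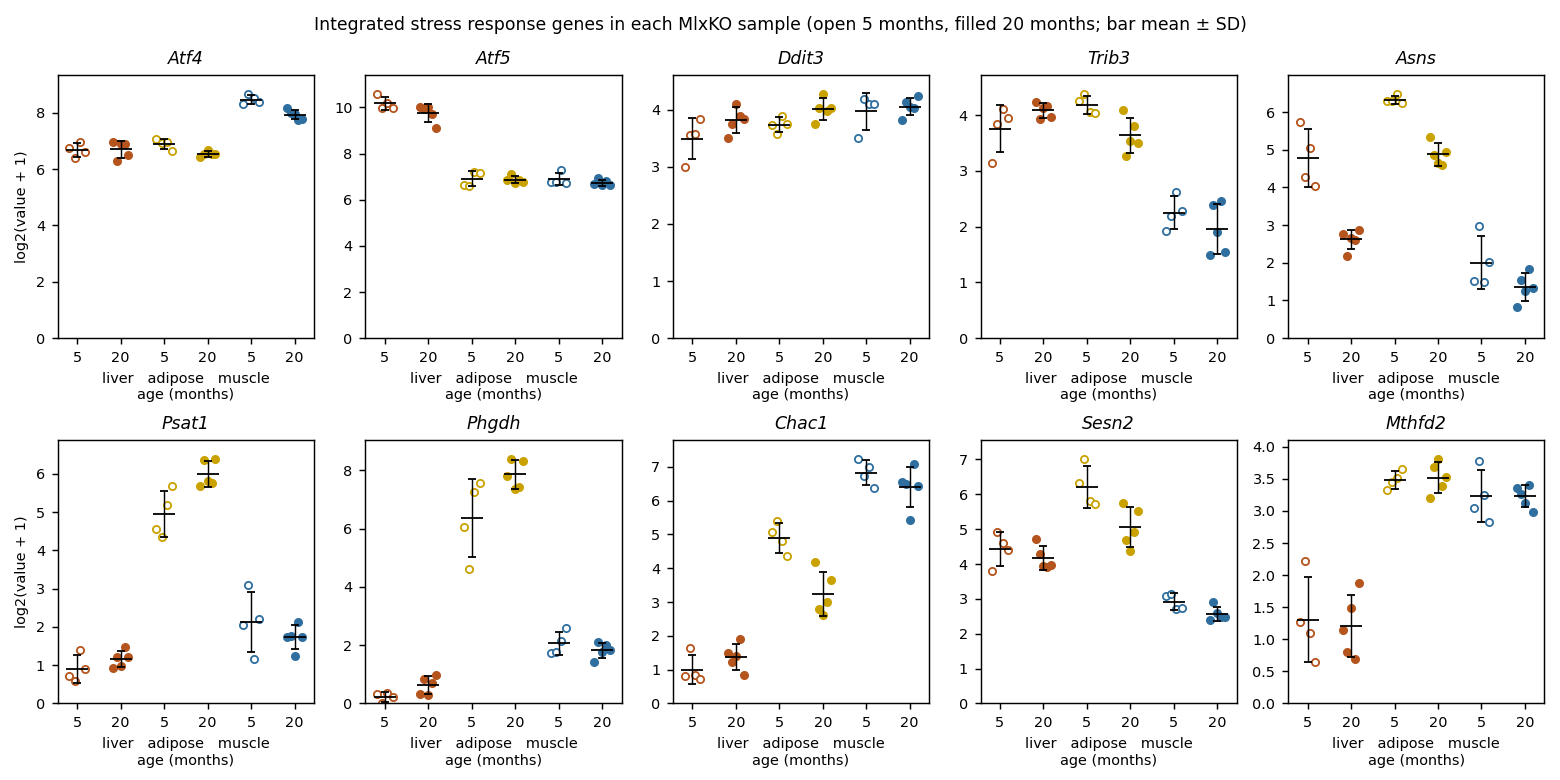
Log2(value + 1) of the 10 genes in every *Mlx*KO sample, by tissue and age in months; open points are the 4 mice at 5 months, filled points the 5 at 20 months, and the bar is the mean ± SD. The *Asns* points of the 2 ages separate in liver and adipose tissue, and the *Atf4* points of the 2 ages separate in muscle.

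Differences between tissues were tested by limma in 1 fit of the 27 samples, with a call at an adjusted p under 0.05. All log2 differences and changes are of log2(value + 1), which understates the change of low genes. At 5 months 7 of the 10 genes differed between liver and adipose tissue, where 76.4% of 15572 genes did, all 10 between liver and muscle, where 72.9% did, and 7 between adipose tissue and muscle, where 72.8% did. At 20 months the counts were 8 for liver against adipose tissue (74.5% of all genes), 8 for liver against muscle (77.2%) and 7 for adipose tissue against muscle (76%). Since most expressed genes differ between these tissues, the counts for the 10 genes are near the background.

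*Atf5*, a factor related to ATF4 whose mRNA is also under translational control, was higher in liver than in adipose tissue by 3.28 on the log2 scale at 5 months and 2.89 at 20 months. *Atf4* was lower in liver than in muscle by a log2 difference of -1.80 at 5 months and -1.22 at 20 months, and lower in adipose tissue than in muscle by -1.57 and -1.39. *Chac1*, which encodes an enzyme that degrades glutathione, was higher in muscle than in liver, with a log2 difference of -5.83 for liver against muscle at 5 months. The largest differences between adipose tissue and liver among the 10 genes were those of the serine synthesis genes *Phgdh* (-6.14 for liver against adipose tissue at 5 months and -7.23 at 20 months) and *Psat1* (-4.04 and -4.85). In liver *Phgdh* held 0 to 4 reads at 5 months and 4 to 19 at 20 months, and *Psat1* 7 to 23 and 18 to 31. The size of these differences therefore depends on the 1 added to each value. *Mthfd2*, a mitochondrial enzyme of the folate cycle, was lower in liver than in both other tissues, by -2.18 against adipose tissue and -1.92 against muscle at 5 months. *Asns* was higher in adipose tissue than in muscle by 4.32 and 3.52, *Sesn2* by 3.29 and 2.47 and *Trib3* by 1.93 and 1.68. *Ddit3*, which encodes CHOP, was called only in liver against muscle at 5 months (-0.48, limma adjusted p = 0.0127). All the log2 differences in this paragraph were called, and scaling to the reads outside the 20 most abundant genes moved the median of all genes by -0.76 for liver against adipose tissue and by 0.55 for adipose tissue against muscle at 5 months, so differences of that size depend on the scaling.

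*Asns*, the enzyme that makes asparagine from aspartate and glutamine, was lower at 20 months than at 5 months in liver and in adipose tissue. In liver its values were 52.6, 18.3, 32.2 and 15.5 at 5 months and 5.85, 3.56, 5.36, 5.11 and 6.27 at 20 months. Every liver at 5 months exceeded every liver at 20 months, and the young livers differed among themselves by more than the old ones did. The mean fell from 29.6 ± 16.9 (SD, n = 4) to 5.23 ± 1.04 (n = 5), 5.67-fold lower, a log2 change of -2.16 ± 0.305 (SE, limma adjusted p = 0.00589). In adipose tissue the values were 76.8, 77.6, 88.1 and 74.6 at 5 months and 39.8, 27.95, 24.1, 23.2 and 29.7 at 20 months, again with no overlap. The adipose mean fell from 79.3 ± 6.04 to 28.9 ± 6.62, 2.74-fold lower, a log2 change of -1.45 ± 0.152 (limma adjusted p = 0.00309). Muscle held little *Asns*, at 1.84, 6.93, 1.80 and 3.07 against 0.782, 1.93, 1.37, 2.57 and 1.497, and the ages overlapped there (log2 change -0.64, limma adjusted p = 0.146). An exact two-sided permutation test gave p = 0.00794 in both liver and adipose tissue, the smallest that 4 against 5 samples can give. Both calls were kept in all 12 alternatives of the processing and in all 9 fits without 1 sample.

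In liver *Asns* was the only 1 of the 9 genes tested that passed, where 19.8% of 12654 genes did and 9.79% did so with lower values at 20 months. It was also the only 1 whose ages did not overlap, where 19.1% of all genes had none. The median log2 change was 0.04 over the 9 genes and 0.00106 over all genes. *Phgdh* was below the filter in liver, with 0 to 4 reads at 5 months and 4 to 19 at 20 months. The sum of the hepatocyte markers also separated the ages in liver, at 108034 to 162613 against 45110 to 101160, with 1 of its 5 genes (*Tat*) called lower, and 3 of 8 macrophage markers were called higher. Their part in the *Asns* result was not tested, and in whole tissue fewer cells of a type and less RNA per cell cannot be told apart. *Atf4* itself did not pass in liver, at 106, 82.4, 123 and 96.8 against 124, 77.4, 118, 119 and 89.4 (log2 change 0.04 ± 0.165, limma adjusted p = 0.881).

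**Figure D2:**
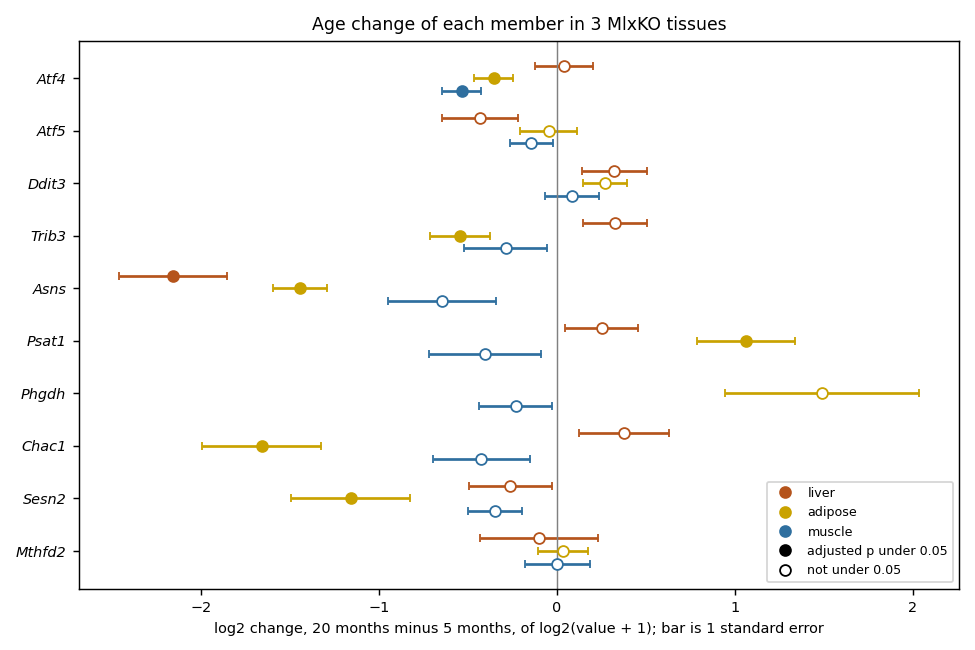
Log2 change from 5 to 20 months of each gene in liver, adipose tissue and muscle, on the scale of log2(value + 1), with a bar of 1 standard error; filled points have a limma adjusted p under 0.05. In adipose tissue *Asns*, *Chac1*, *Sesn2*, *Trib3* and *Atf4* lie below 0 and *Psat1* above it, while liver has 1 filled point (*Asns*) and muscle 1 (*Atf4*).

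In adipose tissue 6 of the 10 genes passed, 5 lower and 1 higher at 20 months, where 19.1% of 14005 genes passed, 9.35% of them lower and 9.75% higher. The median log2 change was -0.20 over the 10 genes and 0.00718 over all genes. In 3 of the 10 (*Asns*, *Psat1* and *Chac1*) the ages did not overlap, where 17.4% of all genes had no overlap. The count of 6 rested on single samples, for it ranged from 1 to 7 when each adipose sample was left out, and the count over all genes ranged from 397 to 3748 in the same fits.

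*Chac1* in adipose tissue stood at 32.4, 41.2, 27.3 and 19.4 at 5 months and at 17.04, 5.88, 5.12, 7.03 and 11.7 at 20 months. All old samples were below all young ones, although mouse D and sample 36 lay close to each other. The mean fell from 30.1 ± 9.15 to 9.35 ± 5.00, 3.21-fold lower, a log2 change of -1.66 ± 0.334 (limma adjusted p = 0.0176), with p = 0.0159 by an exact two-sided permutation test. The call was lost without mouse A or without mouse B, with an adjusted p of up to 0.0563.

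*Sesn2* encodes a leucine-binding protein that restrains mTORC1 signaling. Its adipose values were 78.4, 127, 54.8 and 51.9 at 5 months and 53.0, 24.9, 19.7, 29.04 and 45.0 at 20 months, so that the highest old sample overlapped the lowest young one. The mean fell from 78.1 ± 34.9 to 34.3 ± 14.1, 2.28-fold lower (log2 change -1.16 ± 0.337, limma adjusted p = 0.0420, exact permutation p = 0.0238). It was called in 3 of the 9 fits that left out 1 sample, and was lost without sample 37, 38, 39 or 40 or mouse A or B, with an adjusted p of at most 0.105. *Chac1* and *Sesn2* moved together across the 9 adipose samples, with a correlation of 0.941 of their deviations from the 2 group means, while the same measure was 0.381 in liver and 0.0469 in muscle. These points share a library for both genes and are given as a description.

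*Trib3*, a pseudokinase induced by ATF4 and CHOP that limits their activity, stood at 18.1, 19.8, 15.6 and 15.5 in adipose tissue at 5 months and at 15.9, 8.64, 10.5, 12.9 and 10.4 at 20 months. Sample 36 reached the range of the young mice and the other 4 old samples did not. The mean fell from 17.2 ± 2.06 to 11.7 ± 2.83 (log2 change -0.54 ± 0.166, limma adjusted p = 0.0479, exact permutation p = 0.0317). *Atf4* fell from 133, 119.9, 123 and 99.6 to 84.3, 92.3, 101.5, 90.8 and 93.0 (log2 change -0.36 ± 0.108, limma adjusted p = 0.0477, exact permutation p = 0.0159), with sample 38 just above mouse D. Both stood close to the threshold. The *Trib3* call was kept in 8 of 12 alternatives and in 2 of 9 fits without 1 sample, those without sample 36 or mouse D, and the *Atf4* call in 6 of 12 and in 1 of 9, the fit without mouse D.

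Of the 2 serine synthesis genes, *Psat1* was called higher in adipose tissue at 20 months and *Phgdh* was not called. *Psat1*, the aminotransferase of the pathway, stood at 22.8, 19.4, 35.2 and 50.3 at 5 months and at 50.6, 82.0, 55.3, 53.8 and 82.4 at 20 months. The ages did not overlap, though mouse D and sample 36 differed by less than 1 unit of value. The mean rose from 31.9 ± 14.03 to 64.8 ± 15.9, 2.03-fold higher (log2 change 1.06 ± 0.277, limma adjusted p = 0.0330, exact permutation p = 0.00794). The call was kept in 11 of 12 alternatives and in 3 of the 9 fits without 1 sample, and was lost without sample 37, 38, 39 or 40 or mouse A or B (adjusted p at most 0.0923). *Phgdh*, the dehydrogenase that opens the pathway, stood at 65.0, 23.2, 149.7 and 190.0 against 220.4, 330.3, 163, 170.1 and 321, with means of 107 ± 76.4 and 241 ± 80.6. Its log2 difference of 1.49 ± 0.547 did not pass (limma adjusted p = 0.0771, exact permutation p = 0.0317), and it was called in 3 of 12 alternatives and without mouse D. The 2 genes correlated at 0.905 over the 9 adipose samples by their deviations from the group means, with mouse B lowest in both.

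The other 3 genes gave no call in adipose tissue. *Ddit3* was 12.3, 10.97, 13.8 and 12.5 against 12.4, 15.3, 18.3, 14.6 and 15.4 (log2 difference 0.27, limma adjusted p = 0.128). *Atf5* was 98.5, 96.2, 148 and 143 against 115, 137, 105, 113 and 108 (-0.05, limma adjusted p = 0.843). *Mthfd2* ranged from 8.997 to 11.6 at 5 months and from 8.19 to 12.97 at 20 months (0.04, limma adjusted p = 0.864).

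Markers of other cell types moved with age in the same adipose samples. The summed hepatocyte markers were 3233, 2322, 2107 and 1876 at 5 months and 734, 337, 228, 91.1 and 338 at 20 months, which amounts to 1.44% to 2.47% and 0.110% to 0.886% of the sum in liver. The sum does not stand for the whole list, since 1 of the 4 hepatocyte markers tested was called lower (*Cyp2e1*) and their median log2 change was 0.11. Because the sum does not stand for the list, these shares are not a measure of liver RNA. No amount of a gene that liver RNA would bring can be drawn from them. Whether the adipose samples held liver RNA was not tested. Macrophage markers summed to 1084, 805, 1739 and 1037 at 5 months and to 1145, 3657, 5542, 2797 and 1632 at 20 months, with 2 of 8 called higher, and all 5 of the B cell markers tested were called higher, their sum going from 5.39 to 21.7 to 18.1 to 189. None of the 5 adipocyte markers was called, and their sum was 9227, 5886, 10552 and 13229 at 5 months and 10866, 12823, 9333, 8562 and 10424 at 20 months. T cell markers summed to 6.98 to 13.97 and 5.76 to 53.1, muscle fibre markers to 327 to 829 and 98.9 to 559, and mesothelial markers to 61.4 to 132 and 34.9 to 71.9. The sum of the pancreatic list went from 3.21 to 12.7 at 5 months to 16.1 to 29.7 at 20 months, with 6 of its 8 genes at 0 in every older sample and *Cela1* the 1 gene tested, and that of the testis and epididymis list from 3.03 to 8.09 to 37.4 to 52.3, with *Sycp3* the 1 gene tested.

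Several of the genes followed these sums from sample to sample in adipose tissue. By deviations from the group means over 9 samples, *Phgdh*, *Psat1* and *Atf5* correlated with the adipocyte sum at 0.946, 0.835 and 0.793. *Sesn2*, *Chac1*, *Trib3* and *Asns* correlated with the macrophage sum at -0.874, -0.851, -0.651 and -0.617, and *Ddit3* and *Mthfd2* at 0.880 and 0.735. *Asns* correlated at 0.830 with the hepatocyte sum, which does not stand for its whole list. Correlations as large were found with the sums of other lists, such as 0.878 for *Psat1*, 0.826 for *Atf5* and 0.816 for *Phgdh* with the pancreatic list, and 0.823 for *Atf5* and -0.717 for *Trib3* with the muscle fibre list, so that they do not single out a cell type. Both sides of each pair come from the same libraries, and the part of cell composition in the age changes was not tested.

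**Figure D3:**
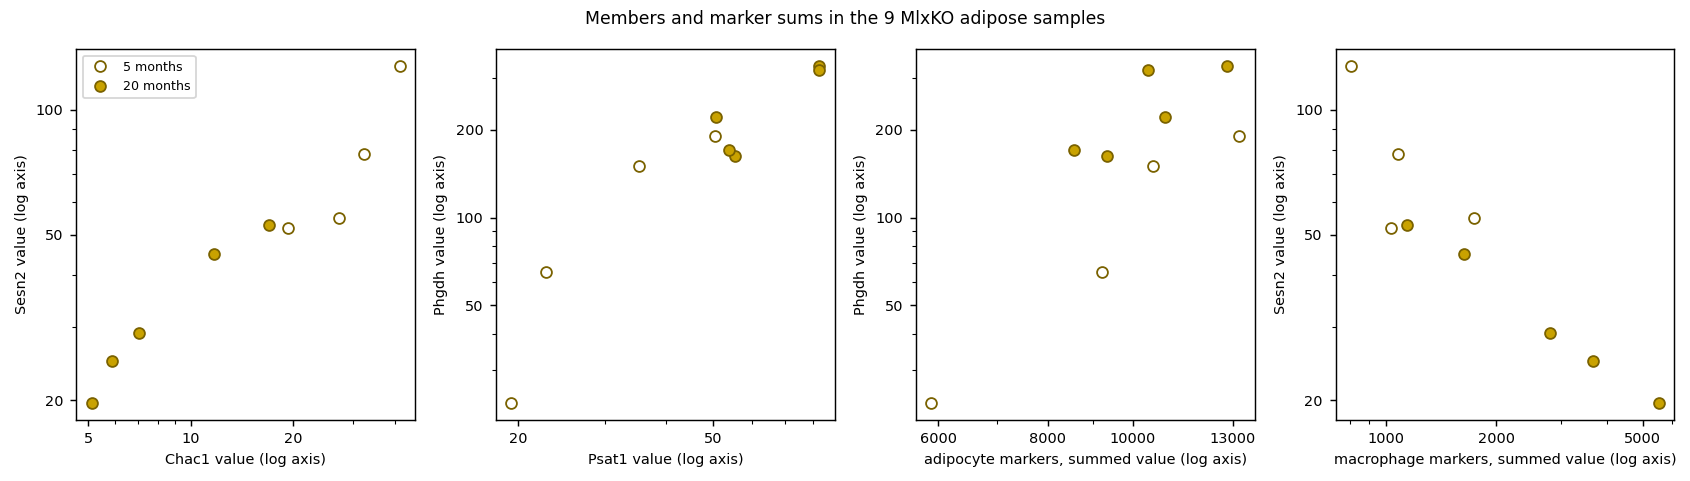
Values in the 9 adipose samples on log axes, open at 5 months and filled at 20 months: *Sesn2* against *Chac1*, *Phgdh* against *Psat1*, *Phgdh* against the summed adipocyte markers and *Sesn2* against the summed macrophage markers. The first 3 panels rise from left to right and the last falls, with sample 38 at the lowest *Sesn2* (19.7) and the highest macrophage sum (5542).

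In muscle *Atf4* was the only 1 of the 10 genes that passed, where 19.3% of 12720 genes did and 10.1% did so with lower values at 20 months. Its values were 314, 405, 366 and 337 at 5 months and 290.3, 251, 249, 216 and 220.2 at 20 months. All old muscles were below all young ones, and *Atf4* was the 1 gene of the 10 whose ages did not overlap, where 17.3% of all genes had no overlap. The mean fell from 356 ± 39.5 to 245 ± 29.8, 1.45-fold lower, a log2 change of -0.54 ± 0.110 (limma adjusted p = 0.00967), with p = 0.0159 by an exact two-sided permutation test. The call was kept in all 12 alternatives and in all 9 fits without 1 sample. The median log2 change was -0.32 over the 10 genes and 0.0168 over all genes.

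The immediate early and heat shock genes fell in the same muscles, 7 of the 8 tested, with summed values of 837, 10811, 684 and 2714 at 5 months and 504, 266, 261, 355 and 305 at 20 months. Mouse B had the highest sum and the highest *Atf4*. Without that mouse the *Atf4* call was kept, but the sums of the other young muscles, 837, 684 and 2714, still exceeded every old one. That fit therefore cannot tell the part of these genes in the result, which was not tested. 4 of 8 macrophage markers were called lower in muscle, with sums of 140 to 224 and 80.8 to 156.

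None of the other 9 genes passed in muscle. *Chac1* stood at 148, 106, 125.6 and 81.5 against 92.0, 89.6, 42.4, 135 and 86.3, with wide overlap (log2 difference -0.43, limma adjusted p = 0.274). *Sesn2* stood at 7.53, 7.90, 5.48 and 5.71 against 4.30, 6.58, 4.99, 4.63 and 4.56 (-0.35, limma adjusted p = 0.123). *Atf5* ranged from 104 to 153 and from 98.7 to 121, *Ddit3* from 10.3 to 17.3 and from 13.2 to 17.8, and *Mthfd2* from 6.13 to 12.7 and from 6.91 to 9.63. *Trib3* ranged from 2.77 to 5.17 and from 1.83 to 4.48, *Psat1* from 1.25 to 7.498 and from 1.37 to 3.38 and *Phgdh* from 2.31 to 5.02 and from 1.70 to 3.32.

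Of the liver genes not yet given, *Atf5* had the widest range, at 1530.0, 1019, 1177 and 997 at 5 months and 1024, 969.6, 1035, 839 and 552 at 20 months, and its log2 difference of -0.43 ± 0.211 did not pass (limma adjusted p = 0.160). *Ddit3* was 6.94, 10.8, 10.9 and 13.4 against 10.3, 12.4, 16.2, 13.9 and 13.2 (0.32, limma adjusted p = 0.213), and *Trib3* was 7.83, 13.2, 16.2 and 14.5 against 17.9, 14.2, 16.4, 16.9 and 14.6 (0.33, limma adjusted p = 0.211). The 2 genes were both lowest in mouse A. *Sesn2* was 12.9, 29.5, 23.1 and 20.1 against 25.2, 18.5, 14.3, 14.1 and 14.8 (-0.26, limma adjusted p = 0.436). *Chac1*, *Psat1* and *Mthfd2* were at the edge of detection in liver, at 0.640 to 2.73, 0.509 to 1.76 and 0.5598 to 3.64, which correspond to 8 to 48, 7 to 31 and 7 to 53 reads.

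To ask whether tissues differed in the age change, the test used was the difference of the log2 changes, in the fit of all 27 samples. Between liver and adipose tissue 2 of the 10 genes passed, where 15.6% of 15572 genes did. *Chac1* differed by 2.04 ± 0.443 (limma adjusted p = 0.00346), with a log2 change of -1.66 in adipose tissue and 0.38, not called, in liver. It kept the call in all 12 alternatives and all 27 fits without 1 sample. *Trib3* differed by 0.87 ± 0.296 (limma adjusted p = 0.0460), and the call was lost in 5 of 12 alternatives and in 15 of the 27 fits without 1 sample, which left out 7 of the livers, among them each of the 5 old ones, 6 of the adipose samples or 2 of the muscles, with adjusted p up to 0.113. Between liver and muscle 2 passed, where 17.5% of all genes did. *Asns* differed by -1.51 ± 0.413 (limma adjusted p = 0.0135), with the larger fall in liver. *Atf4* differed by 0.57 ± 0.190 (limma adjusted p = 0.0378), with a log2 change of -0.54 in muscle and 0.04, not called, in liver. The *Asns* difference was called in 11 of 12 alternatives (adjusted p up to 0.0698) and in all 27 fits without 1 sample, and the *Atf4* difference in 10 of 12 and in 17 of 27, being lost without any of 5 livers and 5 muscles, with adjusted p up to 0.0928. Between adipose tissue and muscle 2 passed, where 14.7% of all genes did. These were *Psat1* (1.47 ± 0.410, limma adjusted p = 0.0185) and *Phgdh* (1.72 ± 0.533, limma adjusted p = 0.0313), both higher with age in adipose tissue relative to muscle. The *Psat1* difference was called in 11 of 12 alternatives, being lost with a pseudocount of 0.1 (adjusted p = 0.0574), and in 26 of 27 fits without 1 sample, being lost without adipose tissue of mouse B (adjusted p = 0.0522). The *Phgdh* difference was lost in 4 of 12 alternatives, with adjusted p up to 0.113, and in 6 of the 27 fits (without adipose sample 37 or 40, adipose tissue of mouse A or B, muscle sample 56 or muscle of mouse D), with adjusted p up to 0.0687. With the mouse as a block the *Chac1* difference between adipose tissue and muscle, -1.23, passed as well, at an adjusted p of 0.0485 against 0.0611 without it.

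Pooled over the tissues, the 10 genes did not vary as 1 unit. Over the 27 samples, by deviations from the 6 group means, 24 of the 45 pairs correlated positively, with a median of 0.00752 and a range of -0.437 (*Phgdh* and *Sesn2*) to 0.592 (*Chac1* and *Sesn2*). The pooled values mix tissues that differed. *Ddit3* and *Trib3* correlated at 0.650 in liver and -0.724 in adipose tissue, and *Asns* and *Psat1* at -0.0248 in adipose tissue and 0.806 in muscle. They also include *Phgdh* in liver, where it was below the filter.

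Of 65 other genes of the pathway, 64 were found by symbol. These lists were also drawn up with earlier results of these data known, so their shares are given as a description. In liver 58 of them were tested and 3 were higher and 10 lower at 20 months, or 5.17% and 17.2% against 10% and 9.79% of all genes. In adipose tissue 4 of 62 were higher and 13 lower, or 6.45% and 20.97% against 9.75% and 9.35% of all genes. In muscle 2 of 59 were higher and 12 lower, or 3.39% and 20.3%, against 9.13% higher and 10.1% lower over all genes. The medians of the log2 changes were -0.23, -0.19 and -0.17 in liver, adipose tissue and muscle, and the median over all genes was 0.00106, 0.00718 and 0.0168. More of these genes were lower than higher in all 21 other fits in liver and muscle and in 20 of 21 in adipose tissue. The adipose count of 13 lower genes rested on single samples, for it was 0 without mouse A, 2 without mouse B or sample 39, 3 without sample 37, 5 without sample 40 and 7 without sample 38, and it was 6 with no filter, 8 with median-of-ratios factors or no variance trend, 21 by DESeq2 and 29 with sample weights.

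**Figure D4:**
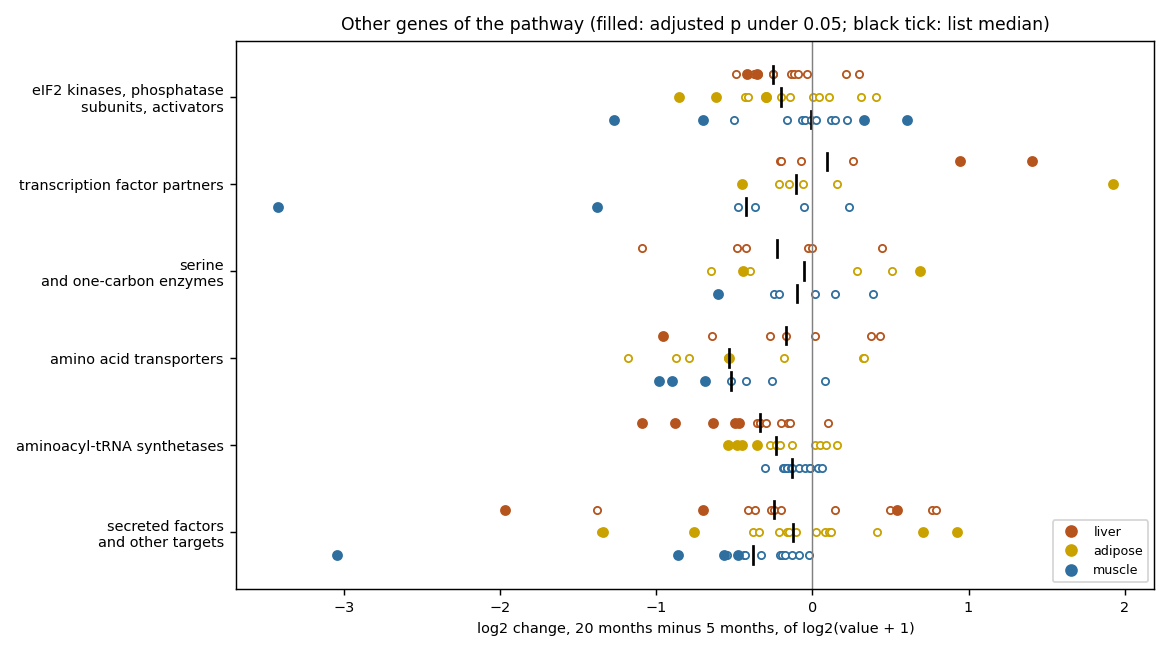
Log2 change from 5 to 20 months of the other genes of the pathway in 6 lists, by tissue; filled points have a limma adjusted p under 0.05 and the black tick is the median of a list. The aminoacyl-tRNA synthetases have 5 filled points in liver and 4 in adipose tissue, all below 0, and 0 in muscle.

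The aminoacyl-tRNA synthetases, which load amino acids onto tRNAs, were lower for 5 of 13 in liver (*Eprs*, *Iars*, *Lars*, *Nars* and *Tars*), 4 of 13 in adipose tissue (*Eprs*, *Gars*, *Iars* and *Tars*) and 0 of 13 in muscle, with 0 higher in any tissue by limma. Over all genes 9.79% were lower in liver, 9.35% in adipose tissue and 10.1% in muscle, where 9.13% were higher. *Tars* in liver went from 204 ± 4.87 to 99.6 ± 31.0 (log2 change -1.09, limma adjusted p = 0.0133). Of the kinases of eIF2, its phosphatase subunits and their activators, 2 of 13 were lower in liver and 4 of 13 in adipose tissue, with none higher. In muscle 2 of 13 were higher, *Eif2ak2* and *Oma1*, and 2 lower. The liver and muscle counts of this list are near the shares over all genes. *Ppp1r15b*, a subunit that directs the phosphatase to eIF2, was lower in liver (log2 change -0.42, limma adjusted p = 0.0374) and muscle (-0.70, limma adjusted p = 0.00476). In adipose tissue it stood at the threshold (-0.62, limma adjusted p = 0.0499). *Ppp1r15b* lost this call without mouse A, a fit in which 0 of the 62 pathway genes of these lists were called lower. Its stress-induced relative *Ppp1r15a* fell from 40.2 ± 7.56 to 22.002 ± 5.66 in adipose tissue (-0.85, limma adjusted p = 0.0225, called in 17 of 21 other fits) and from 252 ± 118 to 98.9 ± 25.4 in muscle (-1.27, limma adjusted p = 0.00704), but stood at 18.3 and 17.7 in liver (limma adjusted p = 0.706).

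Among the partner factors of ATF4, *Atf3* changed in all 3 tissues and not in the same direction. It rose from 1.97 ± 0.641 to 6.91 ± 1.81 in liver (log2 change 1.41, limma adjusted p = 0.00626) and from 13.4 ± 2.81 to 69.2 ± 51.4 in adipose tissue (1.92, limma adjusted p = 0.0406). In muscle it fell from 454 ± 299 to 65.1 ± 99.3 (-3.42, limma adjusted p = 0.0114), together with *Cebpb*, from 121 ± 26.7 to 45.6 ± 6.72 (-1.38, limma adjusted p = 0.000833). The adipose call of *Atf3* was kept in 13 of 21 other fits, and those in liver and muscle in 19 of 20 and 21 of 21. *Atf3* is also an immediate early gene. *Cebpb* did not pass in liver (205 and 190, limma adjusted p = 0.894) or adipose tissue (79.4 and 71.7, limma adjusted p = 0.622). The counts of this list were 2 of 6 higher in liver, 1 higher and 1 lower in adipose tissue and 2 lower in muscle. Over all genes 10% were higher in liver, 9.75% higher and 9.35% lower in adipose tissue and 10.1% lower in muscle.

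Of the other serine and one-carbon enzymes, 0 of 6 passed in liver by limma, 1 of 6 was higher and 1 lower in adipose tissue and 1 was lower in muscle. *Psph*, the phosphatase that completes serine synthesis after *Phgdh* and *Psat1*, rose in adipose tissue from 2.95 ± 0.929 to 5.29 ± 0.925 (0.69, limma adjusted p = 0.0349), a call kept in 13 of 20 other fits. It stood at 4.02 and 5.79 in liver (0.45, limma adjusted p = 0.0843) and 6.69 and 9.03 in muscle (0.39, limma adjusted p = 0.0674). *Shmt2*, which turns serine into glycine in mitochondria, did not pass in any tissue, with means of 255 at both ages in liver, 15.4 and 19.04 in adipose tissue and 35.9 and 30.9 in muscle. Amino acid transporters were lower for 1 of 7 in liver (*Slc6a9*), 1 of 8 in adipose tissue (*Slc7a1*) and 3 of 7 in muscle (*Slc3a2*, *Slc7a1* and *Slc1a5*), with none higher. Over all genes 9.79%, 9.35% and 10.1% were lower in liver, adipose tissue and muscle, and 9.75% were higher in adipose tissue. A count of 1 in lists this short is near those shares.

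The secreted factors and remaining targets had 1 of 13 higher and 2 lower in liver, 2 of 16 higher and 2 lower in adipose tissue and 4 of 14 lower in muscle. Over all genes 10% were higher and 9.79% lower in liver, 9.75% and 9.35% in adipose tissue, and 10.1% were lower in muscle. The counts in liver and adipose tissue are near these shares. *Got1*, the cytosolic aspartate aminotransferase, fell in liver from 631 ± 264 to 153 ± 39.9 (-1.97, limma adjusted p = 0.00589). In adipose tissue *Vldlr*, a lipoprotein receptor, rose from 29.5 ± 5.83 to 58.1 ± 16.9 (0.92, limma adjusted p = 0.0271) and *Bbc3*, which encodes the apoptosis factor PUMA, from 4.38 ± 1.32 to 7.72 ± 1.67 (0.71, limma adjusted p = 0.0376), while the death receptor *Tnfrsf10b* fell from 11.8 ± 2.82 to 6.46 ± 1.02 (-0.76, limma adjusted p = 0.0229). Of 21 other fits these adipose calls were kept in 16 for *Vldlr*, 14 for *Bbc3* and 17 for *Tnfrsf10b*. In muscle *Ddit4*, an inhibitor of mTORC1, fell from 129 ± 116 to 12.3 ± 7.14 (-3.05, limma adjusted p = 0.00746). The immediate early and heat shock genes fell in the same muscles as *Ddit4*, *Ppp1r15a*, *Cebpb* and *Atf3*. Their part in these changes was not tested. The hormones *Fgf21* and *Gdf15* did not pass in liver (30.6 and 24.8, limma adjusted p = 0.390, and 18.6 and 37.1, limma adjusted p = 0.148) or in adipose tissue (1.97 and 1.49, limma adjusted p = 0.845, and 15.2 and 15.8, limma adjusted p = 0.847), and both were below the filter in muscle.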

How the data were processed

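Tissue and age, as annotated, defined the 6 groups of the 27 samples. The authors counted reads per gene and deposited 1 value per gene and sample, which is a scaled signal: counts per gene relative to the library, adjusted by a sample-specific factor. The tests had been laid out for CPM, and were kept on log2(value + 1). Dividing each value by that of 1 read recovered the reads. A check of this step covered the values above 0 except those with high read counts. In that check 100% of the values lay within 0.1 of a whole read. The submitters' processing notes name GRCm38.p6 and mm10. No replicates were pooled. Replicates are samples from separate animals within a group, as the mouse numbers show at 5 months and as was assumed at 20 months. The 48 pairs of samples of the same group differed beyond sampling noise, with a chi-square per degree of freedom of 9.81 to 217.5, and 0 pairs held identical values. The 20 most abundant genes took 9.56% to 29.2% of the reads. Values below those of 3 reads, 0.0703 to 0.242, cannot be told from 0.

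Within each tissue the ages were compared with limma (version 3.58.1, R 4.3.3) and a variance trend. Genes entered if 4 or more samples had a value of 1 or higher, p-values were adjusted by Benjamini-Hochberg over all genes tested, and the threshold was 0.05. Tissues, and differences of the age change between tissues, were tested in 1 fit of 27 samples. Exact two-sided permutation tests used the difference of mean log2 values. Same-numbered samples at 5 months came from the same mouse, and over 12 pairs of samples of 1 mouse their deviations correlated at 0.136 on average, from -0.0169 to 0.294, with 7 pairs over 0.1. The procedures were tested on simulated data.

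The 10 genes and all lists were chosen with earlier results of these data known. Named are all 10 genes, 7 fixed genes of the pathway in every tissue (*Atf3*, *Cebpb*, *Ppp1r15a*, *Fgf21*, *Gdf15*, *Psph* and *Shmt2*), and in each tissue the 3 other genes of the pathway with the largest change among those past the threshold whose ages do not overlap; other called genes of a list are named after their values were seen. The genes most like a member are the 3 with the highest correlation over the 27 samples among genes with a mean value of at least 5. The settings tried instead were a pseudocount of 0.1 or 0.5, a filter of a mean of 5 or none, scaling by median-of-ratios factors, by quantiles or to the reads outside the 20 most abundant genes, a variance model with sample weights or without the trend, count models of the recovered reads (DESeq2 1.42.0, edgeR 4.0.16), all 27 samples in 1 fit, the mouse as a block, and each sample left out.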

Additional observations from a re-analysis of the deposited data

Results flagged for a closer look

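Among the 60 groups of 4 or 5 values, 1 sample stood apart from the others of its group in 3, where chance gives about 1 in 20 groups. *Atf5* in muscle at 5 months was 153 in mouse C and 104 to 109 in the other 3 mice. *Ddit3* in muscle at 5 months was 10.3 in mouse A and 16.03 to 17.3 in the others. *Chac1* in liver at 5 months was 2.11 in mouse B and 0.640 to 0.784 in the others. These 3 genes were not called with age in those tissues by the limma fits reported above.

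The change with age differed between tissues, by limma on the 27 samples, for *Chac1* (2.04, liver minus adipose tissue), *Trib3* (0.87, liver minus adipose tissue), *Asns* (-1.51, liver minus muscle), *Atf4* (0.57, liver minus muscle), *Psat1* (1.47, adipose tissue minus muscle) and *Phgdh* (1.72, adipose tissue minus muscle), all on the log2 scale. In each comparison 2 of the 10 genes passed, where 15.6%, 17.5% and 14.7% of all genes did in that order. These counts are near the background. Of the 27 fits without 1 sample the call was kept in 12 for *Trib3*, 17 for *Atf4* and 21 for *Phgdh*. It was kept in 26 for *Psat1* and in all 27 for *Chac1* and *Asns*.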

How the results depend on the processing

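Of 4138 refits of single genes, 3920 kept direction and call, 98 lost a call and 56 gained 1. Another 59 changed sign with no call before or after. In 5 more the sign changed with a call before or after but not both, and all 5 came from scaling between tissues. Rescaled without the 20 most abundant genes, *Ddit3* for adipose tissue against muscle went from -0.23 to 0.42 at 5 months and from -0.05 to 0.51 at 20 months. For liver against adipose tissue at 20 months *Trib3* went from 0.45 to -0.27, and *Atf4* from 0.17 to -0.59, or to -0.40 by quantile normalization. *Ddit3* and *Atf4* were called only after the scaling and *Trib3* only before it. Rescaling without the 20 most abundant genes moved the median of all genes by -0.61 for liver against adipose tissue and 0.45 for adipose tissue against muscle at 20 months. The number of the 10 genes called with age in liver was 1, and 2 with sample weights, which added *Chac1*. In adipose tissue it was 6, and 2 with no filter, 4 by edgeR or without the variance trend, 5 with median-of-ratios factors, quantile normalization, the rescaling or a mean of 5, 7 by DESeq2 or in 1 fit of all samples, and 8 with sample weights; the calls lost were those of *Atf4* and *Trib3*, and with no filter also *Psat1* and *Sesn2*. For the difference of the age change between liver and adipose tissue it was 2, but 1 with pseudocounts of 0.1 and 0.5, no filter, edgeR or DESeq2, and 7 with sample weights. Between liver and muscle it was 2, but 1 with no filter, sample weights or edgeR. Between adipose tissue and muscle it was 2, but 0 with a pseudocount of 0.1, 1 with no filter, edgeR or DESeq2, and 5 with sample weights. The cause was not tested.

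Without 1 sample at a time these counts ranged from 1 to 1 in both liver and muscle and from 1 to 7 in adipose tissue. The differences of the age change ranged from 1 to 3, 1 to 2 and 0 to 3. Between tissues the counts ranged from 7 to 8, 9 to 10 and 7 to 8 at 5 months and from 7 to 9, 8 to 9 and 7 to 7 at 20 months, in the order liver against adipose tissue, liver against muscle and adipose tissue against muscle. Over all genes the count of calls with age was 2674 in adipose tissue, 397 to 3748 without 1 sample, 8456 with sample weights and 1525 to 5270 otherwise. In liver it was 2508, 959 to 3557 without 1 sample, 4454 with sample weights and 1732 to 3463 otherwise, and in muscle 2451, 1158 to 3796 without 1 sample, 2549 with sample weights and 1507 to 3217 otherwise. With the mouse as a replicate block 1 of 90 calls changed, *Chac1* in adipose tissue against muscle at -1.23, and with the mouse as a fixed block among the 8 young samples of a pair of tissues 0 of 30 did. With 4 and 5 samples a group and at most 53 reads for *Chac1*, *Psat1*, *Phgdh* and *Mthfd2* in liver, small changes were not detectable at this depth.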

Other observations

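For each of the 10 genes the 3 genes with the most similar sample-to-sample pattern were taken from 11209 genes, by the correlation of deviations from the 6 group means over the 27 samples. The points share libraries, and the correlations are given as a description. Nearest to *Atf4* were *Tmem248* (0.722), *Bysl* (0.705) and *Nsun2* (0.699). *Atf5* was most like *Ctsf* (0.835), *Nfe2l1* (0.796) and *Bcap31* (0.777). For *Ddit3* these were *Sdf2l1* (0.722), *Calr* (0.717) and *Magt1* (0.711). Nearest to *Trib3* were *Zkscan17* (0.672), *2410002F23Rik* (0.643) and *Gm19696* (0.641). *Asns* was most like *Slc1a3* (0.726), *Sipa1l2* (0.682) and *Spry2* (0.675). For *Psat1* these were *Plce1* (0.749), *Carhsp1* (0.742) and *Slc5a3* (0.732). Nearest to *Phgdh* were *Cd1d1* (0.911), *Sncg* (0.903) and *Cyp4v3* (0.896). *Chac1* was most like *Lta4h* (0.784), *Rad21* (0.771) and *Sfxn1* (0.771). For *Sesn2* these were *Sik3* (0.835), *Rab3gap1* (0.835) and *Usp33* (0.824). Nearest to *Mthfd2* were *Tagln2* (0.801), *Mob3a* (0.773) and *Tlr7* (0.754). *Sdf2l1* and *Calr*, listed with *Ddit3*, encode proteins of the endoplasmic reticulum, and *Slc1a3*, listed with *Asns*, encodes a glutamate and aspartate transporter.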
